A study of Mus musculus with 6 samples.

Results

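The genes described here encode the enzymes that build, recycle and balance nucleotides, together with the serine and folate enzymes that supply them with one-carbon units. They are 35 genes given by symbol, covering the synthesis of purines and pyrimidines, serine synthesis, folate metabolism, salvage, and the supply of deoxynucleotides. All 35 were found in the expression table, in which they took 36 of 39179 gene identifiers because Nme2 carries a second identifier, ENSMUSG00000091228, annotated as a readthrough transcript of Nme1 and Nme2. The RNA-Seq compared 2 populations of B cells sorted from ileal Peyer's patches, which are lymphoid tissue in the gut wall, of WT C57BL/6 mice that were female and 12 weeks old. Germinal center (GC) B cells were gated as Fas+GL7+ B cells and naive, or resting, B cells as Fas-GL7- B cells, and each population was represented by 3 pools, every pool holding cells of several mice. Both populations came from the same kind of animal, with no treatment or genetic difference between them. The comparison is thus one of cell states and asks how transcripts of the nucleotide-making enzymes differ between dividing GC B cells and resting B cells. Where an enzyme is called higher or lower below, its transcript is meant, and protein and enzyme activity were not measured. The pools are the replicates, and p-values set the difference between populations against the spread between pools.

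Purines are built stepwise on phosphoribosyl pyrophosphate (PRPP) up to inosine monophosphate (IMP), from which AMP and GMP branch off, whereas the pyrimidine ring is built first and then joined to ribose phosphate. Serine gives a carbon to tetrahydrofolate, and folate carries it into the purine ring and into thymidylate. Salvage enzymes return bases and nucleosides to the pool, and ribonucleotide reductase converts ribonucleotides into the deoxynucleotides used for DNA. GC B cells divide rapidly while their antibody genes mutate, and resting B cells do not divide.

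Expression is given as TPM, the deposited FPKM of a pool rescaled so that every pool has the same total, a length-corrected scale on which levels of different genes can be set side by side. Depth, read from the smallest increments of the FPKM scale, came to about 9800000 to 16200000 reads per pool, and 12075 to 12450 genes reached 1 TPM in a pool. The sort was visible in the marker genes. All 5 GC B cell markers measured were higher in GC pools (Bcl6, Fas, Mybl1, S1pr2 and Rgs13, summed level 1028 to 1088 TPM against 51.9 to 57.7 TPM). Fas was itself part of the gate. S1pr2 and Rgs13 reached 1 TPM in GC pools alone, so the filter fixed their direction and their calls carry no weight. All 5 naive B cell markers measured were lower. Of 5 general B cell markers 4 were lower and 1 was higher, with sums of 3782 to 3817 TPM in GC pools and 5633 to 5766 TPM in naive pools. All 12 cycling cell markers, among them Pcna and the Mcm2 to Mcm7 helicase genes, were higher in GC pools. Their summed level was 3120 to 3213 TPM against 295 to 309 TPM. Of these markers, Mki67 and Cdk1 reached 1 TPM in GC pools alone, and their calls likewise carry no weight. Epithelial markers summed to 30.1 to 50.3 TPM in GC pools and to 68.1 to 102.7 TPM in naive pools, with 5 of 7 lower and 1 higher in GC pools. The T cell genes Cd3e, Cd3d and Cd8a were under 1 TPM in every pool, and the sum of all 6 T cell markers, 129 to 140 TPM against 65.8 to 69.4 TPM, was nearly all Lck. Myeloid markers summed to 14.1 to 17.3 TPM against 9.23 to 14.2 TPM, with Csf1r under 1 TPM in every pool. The GC sum was mostly Cd68, which was higher in GC pools (means 13.1 against 5.88 TPM). Lyz2 (1.28 against 3.30 TPM) and Itgam (0.106 against 1.02 TPM) were lower in every GC pool than in any naive pool, and Itgax and Csf1r overlapped. The 2 haemoglobin genes summed to at most 12.0 TPM. Of 4 plasma cell markers 3 were lower and Prdm1 was higher in GC pools (sums 131 to 135 TPM against 192 to 212 TPM). The part that these differences between the sorted populations play in the values below was not tested.

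GC B cells expressed most of the nucleotide and one-carbon genes at a higher level than naive B cells. Of the 36 identifiers, 30 were higher in GC pools, where 35.5% of the 12785 genes tested were higher, and 2 were lower, Impdh1 and one identifier of Nme2, where 30.1% of all genes tested were lower (limma on log2(TPM + 1), Benjamini-Hochberg adjusted p under 0.05 over all genes). Cad, Dhodh, Aprt and Samhd1 did not pass the test. Over all genes tested, 65.6% were called in one direction or the other. A log2 fold change of at least 1 was reached by 18 of the 36 among the calls for higher expression, against 14.2% of all genes tested. The median log2 fold change was 1.01 over the 36 identifiers and 0.03 over all genes tested. In 30 of them every GC pool lay above every naive pool, which was so for 37.8% of all genes tested, and in 3 every GC pool lay below every naive pool, against 32.8% of all genes. One or the other was so for 70.7% of all genes tested. All 36 were at 1 TPM or more in all 6 pools, so none entered the test through one population alone.

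Summed over the 36 identifiers, the transcripts made up 3729, 3788 and 3737 TPM in the GC pools and 1659, 1640 and 1635 TPM in the naive pools. That is a mean of 0.375% of all TPM in GC B cells and 0.164% in naive B cells, a 2.28-fold difference. In bulk samples of this kind more expressing cells and more RNA per expressing cell cannot be told apart. The difference was uneven over the pathway. Summed salvage and breakdown genes (Hprt, Aprt, Ada, Dck and Tk1) were 3.75-fold higher, serine synthesis 3.60-fold, deoxynucleotide supply 3.01-fold and folate enzymes 2.77-fold. Purine ring synthesis was only 1.86-fold higher, the AMP and GMP branches 1.45-fold, pyrimidine synthesis 1.39-fold and the nucleoside diphosphate kinases 1.22-fold. Samhd1, a hydrolase of deoxynucleotides at about the same level in both populations, made up most of the naive sum for deoxynucleotide supply. Without it, a sum formed after its values were seen, the remaining 5 genes summed to 721 to 725 TPM in GC pools and to 47.8 to 51.9 TPM in naive pools, 14.5-fold higher. By median log2 fold change deoxynucleotide supply stood first (3.19), before salvage and breakdown (2.08) and serine synthesis (1.50). These folds are ratios of mean TPM. The log2 fold changes below are on the log2(TPM + 1) scale, which understates the change of genes at a few TPM.

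**Figure D1:**
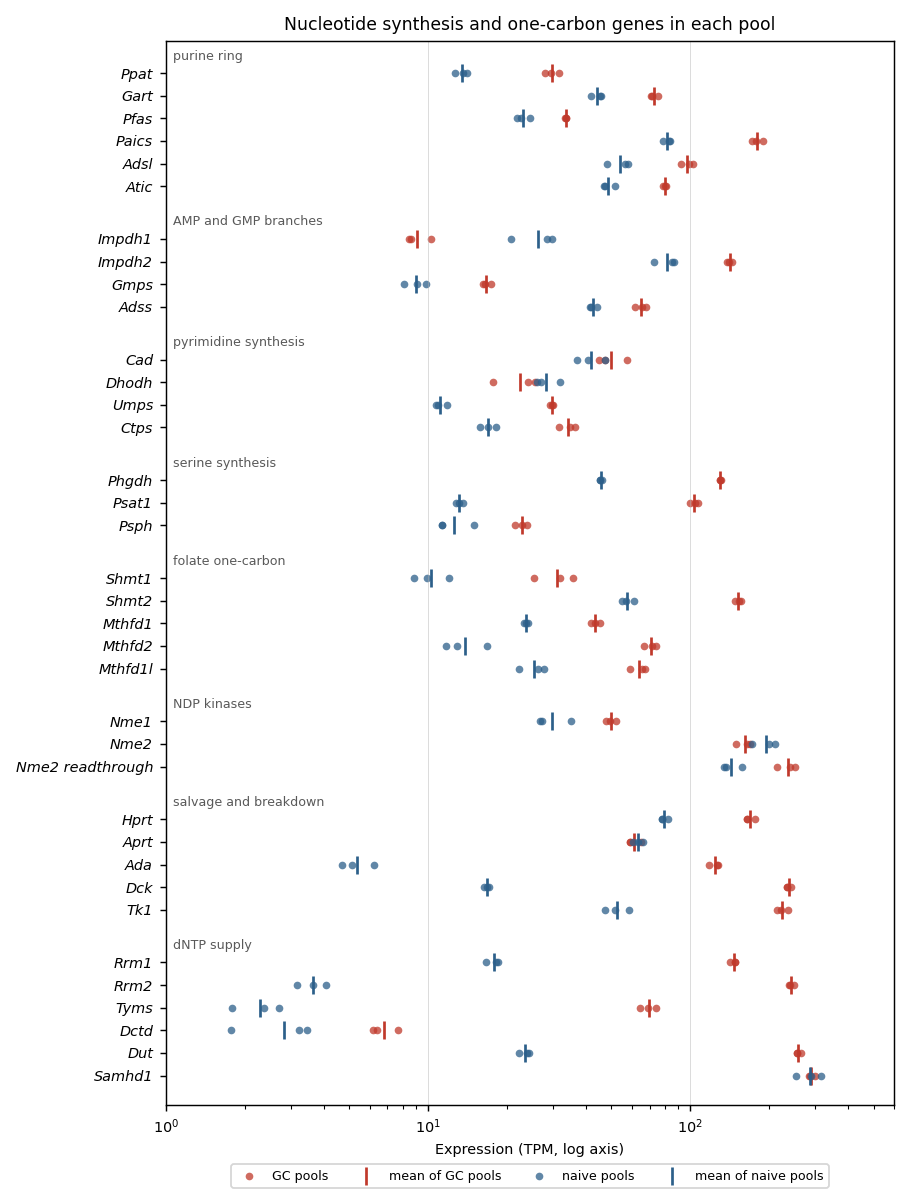
Expression of each gene in TPM (log axis) in the 3 GC pools (red) and 3 naive pools (blue), with vertical ticks at the group means, grouped by role in the pathway. Red points lie to the right of blue points in 30 of 36 rows, Impdh1, Dhodh and the main Nme2 identifier lie the other way, and Cad, Aprt and Samhd1 overlap.

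Rrm2 and Tyms had the largest fold differences of the genes. Rrm2, the small subunit that carries the radical and is made mostly in cells that replicate DNA, was at 240.1, 238 and 247 TPM in GC pools 1, 2 and 3 and at 3.66, 4.09 and 3.18 TPM in naive pools 1, 2 and 3. It was among the most abundant of the genes in GC B cells and among the scarcest in naive B cells, and its mean differed 66.4-fold (log2 fold change 5.71, SE 0.08, adjusted p = 1.13e-07). Rrm1, the large catalytic subunit, was at 148, 142 and 149 TPM in GC pools and at 18.5, 18.2 and 16.6 TPM in naive pools, an 8.23-fold difference (log2 fold change 2.97, SE 0.06, adjusted p = 2.53e-07). Naive B cells thus held more Rrm1 than Rrm2 transcript per length, and GC B cells more Rrm2 than Rrm1.

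The enzymes of thymidylate synthesis were higher as well. Tyms, which methylates dUMP to dTMP with a folate carbon, was at 69.2, 74.1 and 64.5 TPM in GC pools and at 2.70, 1.79 and 2.36 TPM in naive pools, and was 30.3-fold higher in GC B cells (log2 fold change 4.43, SE 0.12, adjusted p = 6.69e-07). Dut, the dUTPase that supplies dUMP and keeps uracil out of DNA, was at 256, 265 and 255 TPM against 23.8, 24.3 and 22.2 TPM, 11.0-fold higher (log2 fold change 3.41, SE 0.05, adjusted p = 1.13e-07). Both genes were separated without overlap, with the lowest GC pool far above the highest naive pool. Dctd, which deaminates dCMP to dUMP and so feeds the same reaction, was low in both populations, at 7.72, 6.39 and 6.19 TPM against 3.23, 1.78 and 3.46 TPM. Its 2.40-fold difference carried the largest standard error of all the genes (log2 fold change 1.05, SE 0.21, adjusted p = 0.00430).

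Samhd1, the hydrolase that breaks deoxynucleoside triphosphates down, did not follow the enzymes that make them. It was at 286, 284 and 299 TPM in GC pools and at 289, 315 and 254 TPM in naive pools, so that the naive pools lay on both sides of the GC pools. Its log2 fold change was 0.02, with a 95% interval of -0.17 to 0.22 (adjusted p = 0.821), and its sign depended on the scaling. Samhd1 was the most abundant of the 36 identifiers in both populations. In naive B cells its mean of 286 TPM stood beside 3.64 TPM of Rrm2 and 17.8 TPM of Rrm1, whereas in GC B cells its 290 TPM stood beside 242 TPM of Rrm2 and 146 TPM of Rrm1.

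Transcripts of enzymes for the salvage and breakdown of nucleosides were higher in GC B cells at several steps. Ada, the adenosine deaminase whose loss in humans leaves lymphocytes unable to develop, was at 126, 128 and 118 TPM in GC pools and at 5.13, 4.69 and 6.21 TPM in naive pools, a 23.2-fold difference (log2 fold change 4.31, SE 0.10, adjusted p = 3.54e-07). Dck, which phosphorylates deoxycytidine, deoxyadenosine and deoxyguanosine, was at 243, 234 and 234 TPM against 16.3, 17.1 and 16.8 TPM, 14.1-fold higher (log2 fold change 3.74, SE 0.05, adjusted p = 7.61e-08). Of the 36 identifiers it had the smallest adjusted p. Tk1, the cytosolic thymidine kinase of dividing cells, was at 215, 221 and 236 TPM against 51.4, 58.4 and 47.1 TPM, 4.28-fold higher (log2 fold change 2.08, adjusted p = 3.18e-06), and unlike Rrm2 or Tyms it was already well expressed in naive B cells.

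The salvage enzymes for purine bases differed from each other. Hprt, which returns hypoxanthine and guanine to IMP and GMP, was at 164, 177 and 164 TPM in GC pools and at 77.8, 77.9 and 82.6 TPM in naive pools, 2.12-fold higher (log2 fold change 1.07, adjusted p = 6.21e-06). Aprt, which does the same for adenine, was at 58.9, 64.6 and 59.1 TPM against 60.5, 63.3 and 65.7 TPM. The pools of Aprt overlapped, and its log2 fold change of -0.05 had a 95% interval of -0.20 to 0.09 (adjusted p = 0.474).

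All 3 enzymes of serine synthesis from the glycolytic intermediate 3-phosphoglycerate were higher in GC B cells. Phgdh, the first and committing enzyme, was at 131, 129.8 and 130.3 TPM in GC pools and at 45.2, 45.4 and 46.2 TPM in naive pools, 2.86-fold higher and the least variable of all the genes between GC pools (log2 fold change 1.50, SE 0.04, adjusted p = 6.02e-07). Psat1, the aminotransferase of the second step, was at 107, 100.1 and 104 TPM against 13.1, 13.6 and 12.8 TPM, 7.86-fold higher (log2 fold change 2.88, SE 0.06, adjusted p = 2.28e-07). Psph, the phosphatase that releases serine, differed less, at 22.9, 23.8 and 21.5 TPM against 15.0, 11.3 and 11.3 TPM, or 1.81-fold (log2 fold change 0.82, SE 0.12, adjusted p = 0.00119). In naive B cells Psat1 and Psph lay near each other and below Phgdh, and in GC B cells Psat1 lay near Phgdh and Psph stayed below both.

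The 5 folate enzymes were also all higher. Mthfd2, the mitochondrial dehydrogenase and cyclohydrolase that oxidises the serine carbon, was at 74.3, 66.8 and 71.3 TPM in GC pools and at 16.8, 11.7 and 12.9 TPM in naive pools, 5.12-fold higher (log2 fold change 2.29, SE 0.13, adjusted p = 1.45e-05). Shmt2, the mitochondrial serine hydroxymethyltransferase, was at 156, 154 and 148 TPM against 56.9, 54.7 and 61.2 TPM, 2.65-fold higher (log2 fold change 1.39, adjusted p = 3.03e-06), and Mthfd1l, which releases formate in mitochondria, was at 58.8, 67.0 and 65.4 TPM against 22.2, 27.7 and 26.3 TPM, 2.51-fold higher (log2 fold change 1.30, adjusted p = 5.21e-05). The GC pools were above the naive pools for every one of these. The cytosolic enzymes moved in the same direction. Shmt1 was at 25.4, 31.9 and 35.6 TPM in GC pools and at 9.92, 8.83 and 12.0 TPM in naive pools, 3.02-fold higher but with a wide spread (log2 fold change 1.50, SE 0.16, adjusted p = 0.000232). Mthfd1, the cytosolic enzyme that recaptures formate, was at 43.2, 45.2 and 42.0 TPM against 23.2, 24.0 and 23.7 TPM, 1.84-fold higher (log2 fold change 0.85, SE 0.06, adjusted p = 2.94e-05).

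The 6 enzymes that lead from PRPP to IMP were all higher in GC B cells, by 1.46-fold to 2.20-fold. Ppat, which commits PRPP to purine synthesis, was at 31.6, 29.3 and 28.0 TPM in GC pools and at 13.6, 14.0 and 12.7 TPM in naive pools, 2.20-fold higher (log2 fold change 1.08, SE 0.08, adjusted p = 3.86e-05). Paics, a bifunctional carboxylase and ligase and the most abundant of the 6, was at 189, 178 and 172 TPM against 83.7, 78.8 and 83.0 TPM, 2.19-fold higher (log2 fold change 1.12, SE 0.05, adjusted p = 5.95e-06). These 2 genes, which showed nearly the same difference, lie head to head on chromosome 5. In RefSeq (GRCm38.p6) Ppat spans chr5:76913249-76951578 on the minus strand and Paics spans chr5:76951302-76967509 on the plus strand, so that their 5′ ends overlap by 277 bases. Since the strand used in counting is not given in the sources used here, reads from the overlap cannot be told apart.

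Smaller differences were found at the remaining steps. Adsl, which splits off fumarate in IMP synthesis and again in AMP synthesis, was at 91.8, 98.5 and 102 TPM in GC pools and at 57.8, 48.0 and 56.5 TPM in naive pools (1.80-fold, log2 fold change 0.84, adjusted p = 0.000196). Gart, which works at several steps including a formyl transfer from folate, was at 71.1, 71.2 and 75.2 TPM against 41.9, 45.6 and 45.1 TPM (1.64-fold, log2 fold change 0.70, adjusted p = 6.72e-05). Atic, which adds the last folate carbon and closes the ring, was at 80.0, 79.0 and 80.4 TPM against 51.8, 46.9 and 47.5 TPM (1.64-fold, log2 fold change 0.70, adjusted p = 5.90e-05). None of these overlapped between populations. Pfas, the amidotransferase of the ring, had the smallest difference of the 6, with 33.7, 33.6 and 33.4 TPM against 24.6, 22.6 and 21.9 TPM (1.46-fold, log2 fold change 0.53, adjusted p = 0.000506).

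At the branch to GMP the isozymes of IMP dehydrogenase went in opposite directions. Impdh2 was at 145, 138 and 141 TPM in GC pools and at 87.0, 72.9 and 84.9 TPM in naive pools, 1.73-fold higher (log2 fold change 0.79, SE 0.07, adjusted p = 0.000141). Impdh1 was at 10.2, 8.62 and 8.43 TPM in GC pools and at 28.5, 29.8 and 20.7 TPM in naive pools, 2.89-fold lower in GC B cells (log2 fold change -1.42, SE 0.16, adjusted p = 0.000276). Every GC pool was above every naive pool for Impdh2 and below every naive pool for Impdh1. Impdh1 had the most negative log2 fold change of the 36 identifiers. The other branch enzymes were higher in GC B cells: Gmps, which aminates XMP to GMP, with 16.4, 16.2 and 17.4 TPM against 8.09, 9.84 and 9.05 TPM (1.85-fold, log2 fold change 0.83, adjusted p = 0.000338), and Adss, which starts the branch to AMP, with 61.6, 67.5 and 65.6 TPM against 41.7, 44.0 and 41.6 TPM (1.53-fold, log2 fold change 0.60, adjusted p = 0.000146).

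The bases before the starts of Impdh1 and Impdh2 are shown because these isozymes catalyse one reaction and differed in direction. They are the RefSeq promoter windows of GRCm38.p6 without the transcribed part, 250 bases each, at chr6:29216365-29216614 on the minus strand for Impdh1 and at chr9:108560186-108560435 on the plus strand for Impdh2. Capitals mark the E-box CACGTG, the motif that MYC and related factors bind, which was found once before Impdh2 and not before Impdh1. The window of a second annotated start of Impdh1, chr6:29212248-29212547, held none of the motifs searched either. Whether the motif bears on the directions of these genes was not tested.
Impdh1: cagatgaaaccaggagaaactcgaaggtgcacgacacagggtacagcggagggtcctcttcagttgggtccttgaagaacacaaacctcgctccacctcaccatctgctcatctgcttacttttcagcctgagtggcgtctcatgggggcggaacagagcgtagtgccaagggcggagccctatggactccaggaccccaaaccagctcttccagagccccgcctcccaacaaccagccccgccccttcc
Impdh2: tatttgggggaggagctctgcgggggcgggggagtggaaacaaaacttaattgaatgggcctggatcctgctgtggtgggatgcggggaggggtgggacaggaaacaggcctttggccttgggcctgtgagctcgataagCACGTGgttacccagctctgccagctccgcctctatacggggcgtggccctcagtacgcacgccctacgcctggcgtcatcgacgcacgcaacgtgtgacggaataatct

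Windows of 250 bases before to 50 after an annotated start were available for 33 of the 35 genes, all but Pfas and Dhodh. They were searched on both strands for 3 motifs, none of which contains another. These were the E-box given above, an E2F core in any of 3 forms, and TGATGCA, a core shared by C/EBP and ATF sites. The forms of the E2F core differ in the letters after the run of T, and are TTTCGCG with the pair CG there, TTTGGCG with the pair GG, and TTTCCCG with the pair CC. The E-box was in the windows of 5 genes, 15.2% of 33, and in 8.09% of the 27025 genes with a window. An E2F core was in 2, or 6.06%, against 6.38% of all genes, and TGATGCA was in none, against 3.63%. The E-boxes with 10 bases on each side are shown to compare the letters next to them, in the strand of each gene, with the motif in capitals. They lie at chr5:76951089-76951114 (Paics), chr1:71557139-71557164 (Atic), chr9:108560316-108560341 (Impdh2), chr5:30073671-30073696 (Tyms), and for Nme1, which has 2 annotated starts with 1 E-box in the window of each, at chr11:93968275-93968300 (first start) and chr11:93968039-93968064 (second start).
Paics: cctcggaaagCACGTGgagggacctg
Atic: acctcggggtCACGTGgggtcgacac
Impdh2: gctcgataagCACGTGgttacccagc
Tyms: ccacttctgtCACGTGggggcggggt
Nme1, first start: tgcggggaacCACGTGaggccgggga
Nme1, second start: cttgatacgcCACGTGggctcgcctt

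All 5 of these genes were higher in GC B cells, by 1.64-fold to 30.3-fold, as were 30 of the 36 identifiers in all. The Paics E-box lies inside the annotated span of Ppat. Ppat was the only gene with more than 1 match in a single window. Both were E2F cores, written CGGGAAA on its strand, and the stretch that holds them, at chr5:76951719-76951798 on the minus strand and inside the annotated span of Paics, is shown with the cores in capitals.
Ppat: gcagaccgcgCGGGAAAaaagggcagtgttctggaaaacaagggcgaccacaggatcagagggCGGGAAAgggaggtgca
The second gene with an E2F core was Ada. A match gives letters only, and binding was not measured.

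Of the 4 genes of pyrimidine synthesis 2 were higher in GC B cells and 2 did not pass the test, and the difference between them was not tested. Cad, the trifunctional protein that builds the ring up to dihydroorotate, was at 44.7, 57.2 and 47.5 TPM in GC pools and at 47.3, 40.6 and 37.1 TPM in naive pools. The ranges overlapped and the log2 fold change of 0.25 had a 95% interval of -0.05 to 0.55 (adjusted p = 0.119). Without GC pool 2 it was 0.15. Dhodh, the enzyme of the inner mitochondrial membrane that oxidises dihydroorotate, was at 17.7, 25.5 and 24.0 TPM against 27.0, 31.7 and 25.9 TPM. Every GC pool of Dhodh was below every naive pool, the nearest by less than 1 TPM, and the log2 fold change of -0.33 had a 95% interval of -0.70 to 0.03 (adjusted p = 0.0975). Without GC pool 1 it was -0.18. Umps, which attaches ribose phosphate and makes UMP, was at 29.1, 29.7 and 30.0 TPM against 11.8, 10.9 and 10.8 TPM, 2.65-fold higher (log2 fold change 1.33, SE 0.07, adjusted p = 8.97e-06). Ctps, which aminates UTP to CTP, was at 34.9, 36.3 and 31.6 TPM against 15.8, 18.1 and 17.0 TPM, 2.02-fold higher (log2 fold change 0.97, SE 0.08, adjusted p = 9.01e-05). Ctps2, the second CTP synthase, was the more abundant of the pair in naive B cells, with a mean of 92.7 TPM beside 17.0 TPM of Ctps, and was lower in GC B cells, at 38.1 TPM beside 34.3 TPM.

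The nucleoside diphosphate kinases, which turn diphosphates into triphosphates, lie side by side on chromosome 11, and their 3 identifiers have to be read together. Nme1 was at 49.4, 52.3 and 47.6 TPM in GC pools and at 26.8, 35.2 and 27.2 TPM in naive pools, 1.67-fold higher (log2 fold change 0.73, adjusted p = 0.00143). The main Nme2 identifier, ENSMUSG00000020857, was at 150.0, 164 and 170 TPM against 200.2, 172 and 209.9 TPM, and was lower in GC B cells (log2 fold change -0.26, SE 0.09, adjusted p = 0.0361). The readthrough identifier went the other way, with 241, 251 and 214 TPM against 137, 135 and 157 TPM (log2 fold change 0.71, adjusted p = 0.000429). The readthrough model covers the exons of both genes, so how RSEM divided the reads among the 3 models decides these values.

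Added over the 3 models, a choice made after the values were seen, the locus was at 439.9, 468 and 431 TPM in GC pools and at 364, 342 and 395 TPM in naive pools. The sum was 1.22-fold higher in GC B cells with no overlap, and an exact two-sided permutation test gave p = 0.1, the smallest that 3 against 3 pools allow. The call of lower Nme2 was also lost without GC pool 1 (adjusted p = 0.108), GC pool 2 (0.0678), naive pool 1 (0.102) or naive pool 3 (0.0986).

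**Figure D2:**
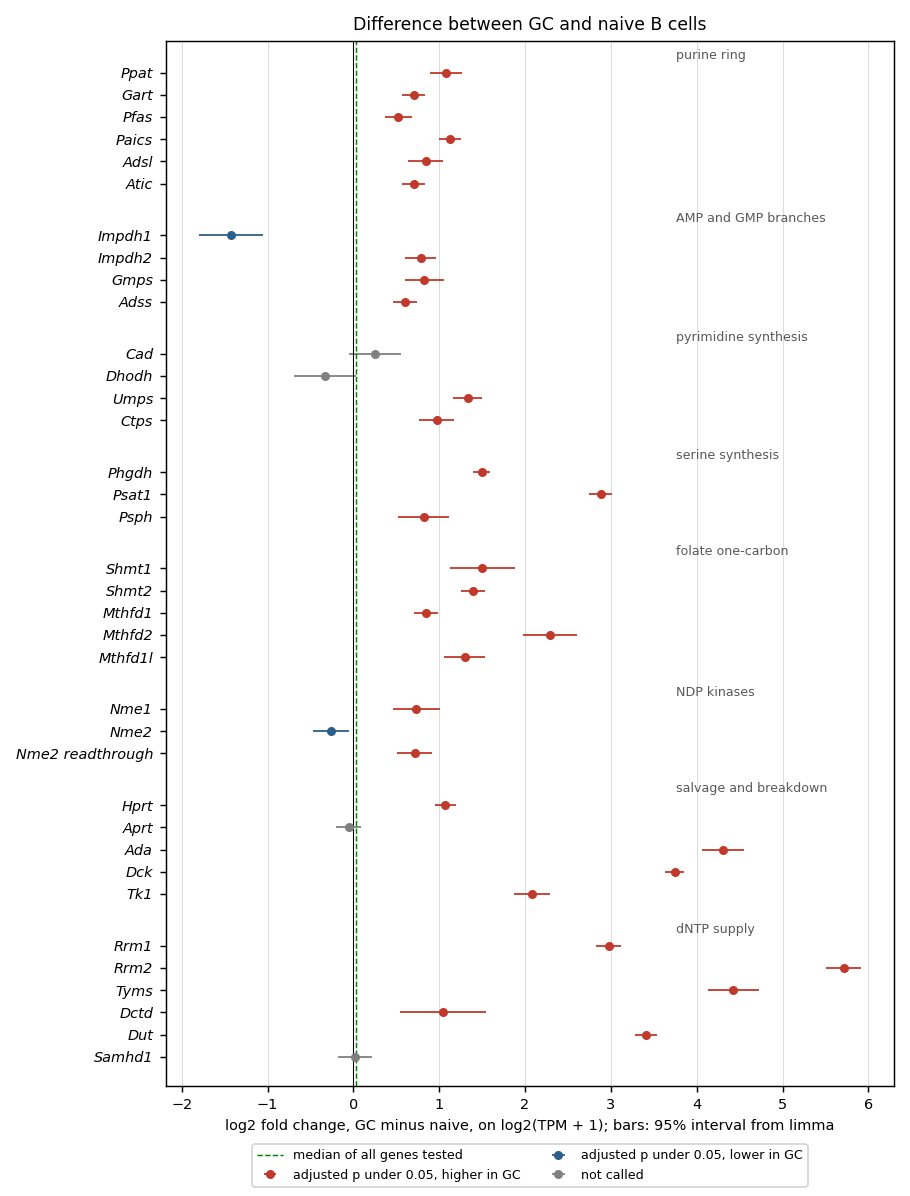
Log2 fold change, GC minus naive, of each gene on the log2(TPM + 1) scale (points) with the 95% interval from limma (bars), coloured by call, beside the median of all genes tested (dashed line at 0.03). The intervals of Cad, Dhodh, Aprt and Samhd1 cross 0, Impdh1 and Nme2 lie below it, and Rrm2 reaches 5.71.

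Ratios within a pool show how the balance of transcripts between enzymes of one step, or of adjoining steps, differed. The log2 ratio of Rrm2 to Rrm1 was 0.72 ± 0.02 (SD, n = 3 pools) in GC B cells and -2.02 ± 0.09 in naive B cells, a 6.69-fold shift. Impdh2 over Impdh1 was 3.82 ± 0.11 in GC B cells and 1.61 ± 0.36 in naive B cells, a 4.63-fold shift. Thus Impdh2 transcript exceeded Impdh1 transcript in both populations, and more so in GC B cells. Mitochondrial Mthfd2 over cytosolic Mthfd1 changed sign, from -0.75 ± 0.28 in naive to 0.69 ± 0.12 in GC B cells, a 2.71-fold shift.

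Shmt2 over Shmt1 was 2.28 ± 0.28 in GC and 2.39 ± 0.12 in naive B cells, a difference of -0.11 with overlapping pools (exact permutation test, two-sided, p = 0.6). The sign of this difference turned without GC pool 3 (0.02). Ctps was also set against Ctps2. Their log2 ratio was -0.10 ± 0.56 in GC and -2.38 ± 0.17 in naive B cells, a 4.85-fold shift, and GC pool 3 (-0.74) stood apart from GC pools 1 and 2 (0.22 and 0.22). The log2 ratio of Nme1 to the sum of both Nme2 identifiers was -2.97 ± 0.01 against -3.47 ± 0.33. For the 5 pairs other than Shmt2 and Shmt1 the pools did not overlap, and the exact two-sided permutation test gave p = 0.1 each, the smallest possible, or 0.12 after Benjamini-Hochberg adjustment over 6 pairs.

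**Figure D3:**
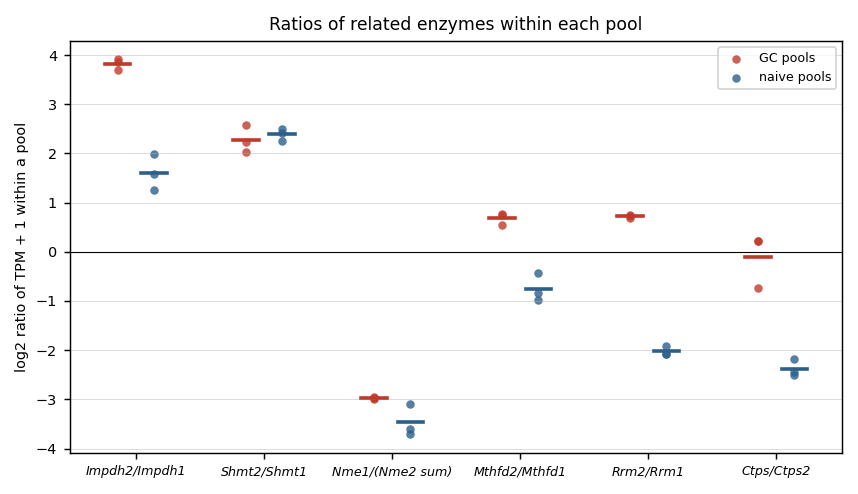
Log2 ratio of TPM + 1 between related enzymes within each of the 3 GC pools (red) and 3 naive pools (blue), with bars at the group means; Nme2 is the sum of its 2 identifiers. The GC pools lie above the naive pools for every pair but Shmt2/Shmt1.

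The pools resembled each other closely for most of these genes. The coefficient of variation between pools had a median of 4.69% in GC B cells, from 0.444% (Phgdh) to 18.4% (Dhodh), and of 9.06% in naive B cells, from 1.09% (Phgdh) to 32.3% (Dctd). The genes with the widest spread in naive pools included Tyms (20.1%) and Mthfd2 (19.5%), and those in GC pools included Shmt1 (16.7%) and Cad (13.2%).

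Other genes of the same pathways were called in both directions. Of a list of 61 further symbols from general knowledge of the pathways 60 were matched, with 61 identifiers, and 54 identifiers passed the filter on low values. Among these, 24 were higher and 18 lower in GC B cells, where 35.5% and 30.1% of all genes tested were, and 12 did not pass the test, with a median log2 fold change of 0.10. The 18 became 12 without GC pool 3 or without naive pool 1. Ggh, Cmpk2, Ampd3, Gmpr and Nt5e entered the test only through the population in which they were high, and of the 44 identifiers at 1 TPM or more in all 6 pools 21 were higher and 14 lower. By role, of 4 genes of PRPP synthesis the 2 synthetases were higher and 1 gene of a synthetase-associated protein was lower. Of 8 isozymes 5 were higher and 2 lower, and of 11 genes of the folate and methionine cycles 3 were higher and 3 lower. Of 6 nucleotide kinases 3 were higher and 3 lower, and of 6 salvage genes 3 were higher and 2 lower. Of 17 breakdown enzymes and nucleotidases 8 were higher and 6 lower, and of 2 glycine cleavage genes 1 was lower. The counts by role include the genes that entered through 1 population alone. They are Ggh (lower) in the folate and methionine cycles and Cmpk2 (lower) among the kinases. Among breakdown enzymes and nucleotidases they are Ampd3 (lower), Gmpr (higher) and Nt5e (higher). Their calls carry no weight here, since the filter required a high level in 1 population.

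Several salvage genes and isozymes of this list were higher in GC B cells. Its salvage genes together, however, summed to 330 to 336 TPM in GC pools and to 322 to 363 TPM in naive pools. Uck2, a uridine and cytidine kinase, was at 50.2, 41.1 and 51.7 TPM in GC pools against 7.32, 6.82 and 7.57 TPM in naive pools (log2 fold change 2.56, adjusted p = 3.27e-06). The related Uckl1 was more abundant and lower in GC B cells, with means of 95.1 against 182 TPM (log2 fold change -0.93, adjusted p = 0.000189). Uck1, with means of 78.5 against 74.7 TPM, did not pass the test. Adk, the adenosine kinase, was at 24.1, 20.5 and 21.3 TPM against 3.55, 4.53 and 5.36 TPM (log2 fold change 2.08, adjusted p = 3.34e-05). Rrm2b, the reductase subunit that p53 induces, was at 62.3, 56.4 and 65.0 TPM against 20.5, 22.5 and 22.2 TPM (log2 fold change 1.45, adjusted p = 8.72e-06). In naive B cells Rrm2b therefore exceeded Rrm2, and in GC B cells Rrm2 exceeded Rrm2b. Adssl1, the muscle-type counterpart of Adss, was higher by a log2 fold change of 0.70 (adjusted p = 0.00315).

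Tk2, Ctps2 and Dguok were lower in GC B cells. Tk2, the mitochondrial thymidine kinase, was at 17.0, 15.5 and 19.3 TPM in GC pools and at 91.0, 100.3 and 90.8 TPM in naive pools, 5.44-fold lower in GC B cells (log2 fold change -2.38, adjusted p = 2.39e-06), opposite in direction to cytosolic Tk1. Naive B cells held more Tk2 than Tk1 transcript per length and GC B cells more Tk1 than Tk2. Ctps2 was at 29.8, 31.0 and 53.5 TPM against 94.0, 103 and 80.5 TPM (log2 fold change -1.31, SE 0.23, adjusted p = 0.00263), the reverse of Ctps. Dguok, the mitochondrial deoxyguanosine kinase, was singled out after its values were seen, as the mitochondrial counterpart of Dck. It was at 40.5, 45.4 and 39.1 TPM against 66.8, 56.7 and 58.8 TPM (log2 fold change -0.53, adjusted p = 0.00189), while Dck was 14.1-fold higher.

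For 4 named genes that reached 1 TPM in one population alone, values are given without a test result. These genes passed the filter on low values only through that population, and their calls are among those counted above. Nt5e, the surface enzyme CD73 that makes adenosine from AMP, was at 44.5, 50.7 and 49.7 TPM in GC pools and under 0.5 TPM in each naive pool. Cmpk2, the mitochondrial UMP/CMP kinase that interferon induces, was at 0.496, 0.678 and 0.460 TPM in GC pools and at 6.41, 8.34 and 5.11 TPM in naive pools. Ampd3, an AMP deaminase, was at 0.482, 0.747 and 0.404 TPM against 11.0, 16.9 and 12.1 TPM. These 3 genes lay under 1 TPM in one population and above 5 TPM in the other. Ggh, which trims the glutamate tail of folates, was at 0.344, 0.083 and 0 TPM in GC pools and at 2.69, 3.54 and 2.96 TPM in naive pools.

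**Figure D4:**
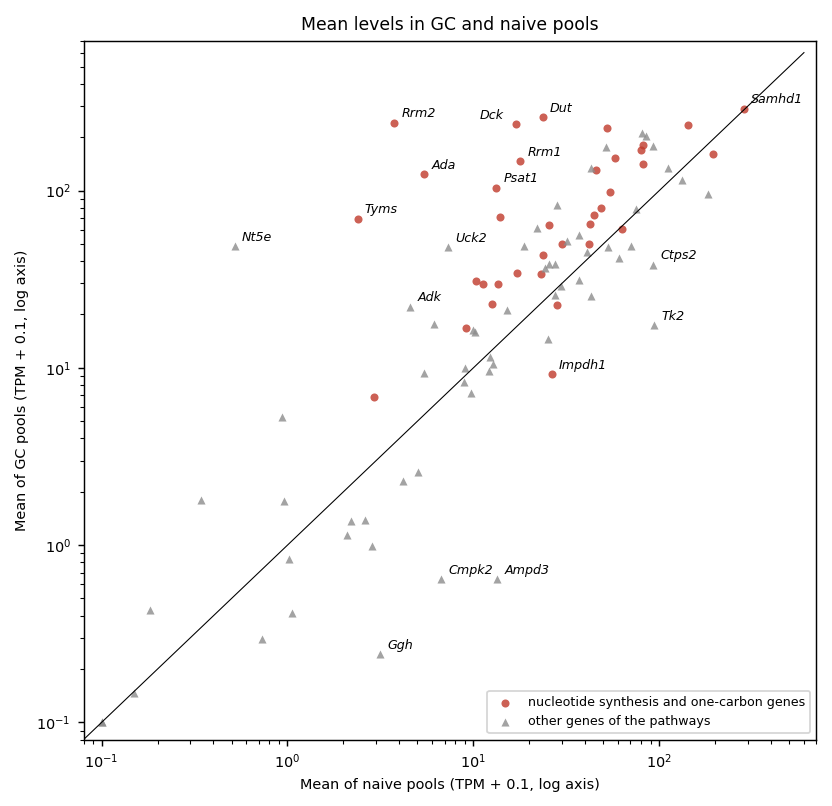
Mean level in the 3 GC pools against the mean in the 3 naive pools (TPM + 0.1, both axes log) for the nucleotide and one-carbon genes (circles) and for other genes of the same pathways (triangles), with the line of equal levels. Most circles lie above the line, with Rrm2 and Tyms farthest from it, and triangles lie on both sides, with Nt5e above and Ampd3, Cmpk2, Tk2 and Ggh below.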

How the data were processed

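Libraries were made from 100 ng total RNA of sorted cells, per the labels with the NEB NEXT Ultra kit. The authors demultiplexed the reads with CASAVA 1.8, checked their quality with FastQC, trimmed adapters with cutadapt 1.9, quantified the reads with RSEM 1.2.25 against mouse transcripts of NCBIm38 v75, and deposited FPKM with 2 decimals, 1 value for each gene in each pool. The submitters' processing notes also name edgeR, without a role. FPKM depends on the transcript length RSEM assigns, and reads shared by overlapping or near-identical models are divided by its estimate. Because no counts were used, a count model could not be run. Depth was estimated from the increments of low FPKM values, of which 66.4% to 71.6% per pool lay within 0.15 of a whole read.

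FPKM was rescaled to TPM per pool. Symbols were looked up by Ensembl identifier in a table of mouse gene names and were found for 33398 of 39179 identifiers. GC and naive pools were compared on log2(TPM + 1) with limma 3.58.1 (R 4.3.3, lmFit, eBayes with trend) over the 12785 genes that reached 1 TPM in 3 or more pools, two-sided, with Benjamini-Hochberg adjustment over all of them and a threshold of 0.05. Within-pool ratios were compared with an exact permutation test (Python 3.11.15, scipy 1.17.1, numpy 2.4.6, pandas 2.3.3, matplotlib 3.10.9). The limma step was tested on simulated data in which 200 genes were raised by a log2 fold change of 1. That setting differs from these data, where 65.6% of genes tested were called, in both directions, so it lends no support to the calls. Promoter windows came from RefSeq (GRCm38.p6).

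The genes, the list of other pathway genes and the markers were chosen with earlier results of these data known. All 35 genes are named. Of the other pathway genes, those named are the 3 called higher and the 4 called lower that changed most among those reported, with Ctps2, Adssl1 and Rrm2b. A few listed genes are not reported here. Dguok, Uckl1 and Uck1 were added after their values were seen. Replicate numbers 1 to 3 occur in both populations, but no source says that equal numbers mark the same mice, so pools were not paired. Alternatives covered the pseudocount, the filter, the scaling, the variance trend, a replicate block and leaving out each pool.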

Additional observations from a re-analysis of the deposited data

How the results depend on the processing

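The 30 identifiers higher in GC B cells were called higher under all 15 alternatives, and 31 to 33 of the 36 identifiers were called in either direction, against 32 as reported. Nme2 was lost without a filter on low values (adjusted p = 0.0602) and without the variance trend (0.0605), besides the 4 pools whose removal is given above, and Aprt was gained as lower under quantile normalization (log2 fold change -0.18, adjusted p = 0.0430). The log2 fold change of Samhd1 changed sign with FPKM as deposited (-0.029), median-of-ratios scaling (-0.018), quantile normalization (-0.051), without GC pool 3 (-0.00067) and without naive pool 3 (-0.061). Without 1 pool it ranged from -0.061 to 0.095, and it passed no threshold. The difference in the log2 ratio of Shmt2 to Shmt1 ranged over the 6 sets that leave out 1 pool from -0.26 to 0.016, and was above 0 without GC pool 3. With the replicate number as a replicate block, 32 identifiers (30 higher, 2 lower) and 7960 of all genes tested were called, against 8392 without it, and no call changed for these genes. Deviations of equally numbered pools from their group means correlated at 0.083, 0.022 and 0.046. The median log2 fold change of all genes was 0.03, and -0.06 under quantile normalization, the scaling that moved it most. The values limit small changes: an interval such as that of Dhodh spans 0, and 3 pools per population cannot take an exact permutation test below 0.1.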
